A study of Mus musculus with 6 samples.

Results

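The most densely accessible stretches of the mouse autosomes in this experiment were 357 windows of 100 kb, out of 24612 such windows laid end to end from base 1 of chromosomes 1 to 19. Each of the 357 had at least 18% of its bases inside an accessible interval, a share called its cover here. The members are the 12667 intervals whose midpoints lay in these windows, 4.02% of the 314915 intervals on chromosomes 1 to 19 (323483 on all chromosomes). They held 4.89% of all covered bases, 7.05 Mb of 144.0 Mb. The windows were chosen by their cover, so their cover and the number and width of their intervals are given as a description, with no test.

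The intervals came from ATAC-seq of mouse embryonic fibroblasts of the strain M2-rtTA x TetO-Myf6, heterozygous for both alleles, in which doxycycline acting on the transactivator M2-rtTA turns on a Myf6 transgene. There were 3 groups with 2 libraries each, all kept for 24 h in a medium labelled iMPC medium, with bFGF at 10 ng/mL. The medium group had no doxycycline, and the Myf6 group had doxycycline at 2 µg/mL. The last, also a Myf6 group, was given, besides doxycycline at 2 µg/mL, RepSox (5 µM), forskolin (5 µM) and CHIR99021 (3 µM). Whether the paired libraries of each group were separate cultures is not stated in the labels. The table used here joins the experiment into 1 interval set with no value for a library or a group, so no group comparison, replicate error or read depth can be given, and an interval may stem from a single group.

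In ATAC-seq a transposase inserts sequencing adapters where DNA is not packed tightly on nucleosomes, which marks promoters, enhancers and other regulatory sites. Stretches with many accessible sites close together often surround genes that define a cell type or are used strongly in it, and wide accessible promoters are typical of CpG islands. Fibroblasts are mesenchymal cells that build actin stress fibres and focal adhesions, secrete extracellular matrix and keep a Hox code that reflects their position in the body.

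Promoter sequences of genes of the actin cytoskeleton are shown first, because these genes recur through the windows. Among this list, 17 annotated starts of 13 genes lay in the windows and inside an interval. Of those starts, 5 had a match to an AP-1 motif (TGANTCA) or a TEAD motif (GGAATG) upstream of the start. No share of other starts is given for this measure, so the count is not read as a trait of these genes. AP-1 factors, dimers of Fos and Jun proteins, and TEAD factors, the DNA-binding partners of YAP, act at many fibroblast enhancers. The lines below give the stretch around the matches, 5′ to 3′ on the gene's strand, from the RefSeq promoter table of GRCm38.p6. Capitals mark the matches on either strand. In Septin9 an AP-1 match and a TEAD match read in reverse overlap, so that they share 1 run of capitals.
Septin9, chr11:117331465-117331697, plus strand: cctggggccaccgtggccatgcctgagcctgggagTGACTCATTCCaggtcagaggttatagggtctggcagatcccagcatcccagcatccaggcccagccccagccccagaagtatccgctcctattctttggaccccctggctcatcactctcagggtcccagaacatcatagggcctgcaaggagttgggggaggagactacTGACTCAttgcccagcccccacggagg
Actn4, chr7:28962463-28962582, minus strand: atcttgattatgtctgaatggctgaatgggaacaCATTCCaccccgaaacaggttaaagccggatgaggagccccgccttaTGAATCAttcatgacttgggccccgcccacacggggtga
Cald1, chr6:34709207-34709326, plus strand: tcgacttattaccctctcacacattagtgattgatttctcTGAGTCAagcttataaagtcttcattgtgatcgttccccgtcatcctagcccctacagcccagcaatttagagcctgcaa
Tpm1, chr9:67049214-67049309, minus strand: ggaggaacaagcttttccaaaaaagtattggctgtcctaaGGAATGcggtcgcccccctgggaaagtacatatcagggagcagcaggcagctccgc
Pfn1, chr11:70654651-70654742, minus strand: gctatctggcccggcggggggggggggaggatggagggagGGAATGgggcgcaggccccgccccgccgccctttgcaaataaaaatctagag

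The same sequence letters were common elsewhere. Of the 20085 promoters in the table, each reaching from 250 bases before the start to 50 bases after it, 7.06% held TGANTCA and 13.4% held GGAATG on either strand. Among the 978 promoters whose start lay in the windows the shares were 6.44% and 12.4%. Over all starts the windows thus did not stand above the table for either motif. For starts inside an interval the shares were 6.64% and 12.2% in the windows, and 5.74% and 11.9% outside. An E-box, CAGCTG, of the kind bound by myogenic regulators, was in 18.5% of the promoters in the windows and in 15.6% of all. For starts inside an interval it was in 16.9% in the windows and 15.8% outside. These shares count each motif alone and over the whole promoter, so they are not a background for the 5 of 17 actin starts. No share over all promoters is given for either motif upstream of the start. A match is a description of letters and not a site known to be bound.

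Cover fell off steadily toward the windows described here. The 24255 other windows had a median cover of 4.85%, and 2920 of them held no interval. The 357 windows had a median of 19.21%, with quartiles of 18.61% and 20.48%, and 112 of them reached 20%, 37 reached 22% and 4 reached 25%. The threshold cuts a continuous range: just inside it lay windows over Tns2 at 18.008%, Tmcc3 and Stx8 at 18.009% and Vasp at 18.013%, and just outside it lay windows over Lhfpl2 at 17.997%, Slc38a10 at 17.996% and Pacsin1 at 17.994%. The list of windows therefore has no natural edge.

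**Figure D1:**
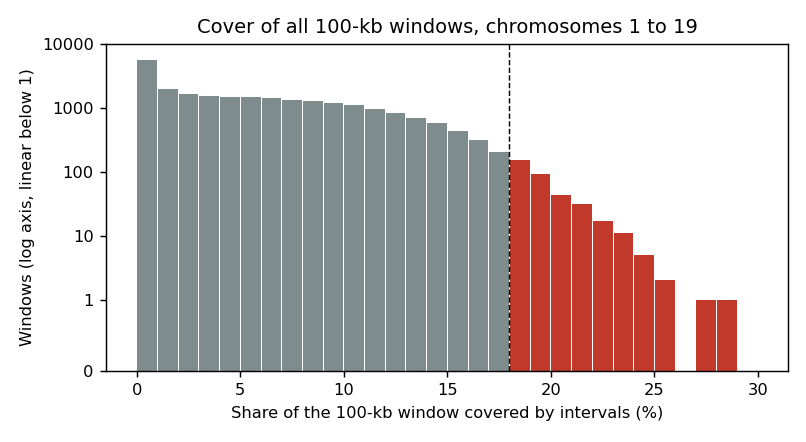
Number of 100-kb windows of chromosomes 1 to 19 (logarithmic axis, linear below 1) by the share of the window covered by intervals (percent), in steps of 1%. Windows of at least 18% cover are red, and counts decline without a gap from 17% to 26%.

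High cover came from more intervals and from wider ones. The windows held a median of 35 intervals, between 24 and 62, against 12 in the other windows. The median width was 414 bp against 334 bp, and 14.7% of the intervals measured at least 1000 bp against 8.49% elsewhere. Those wide intervals gave 38.2% of the covered bases in the windows and 25.4% elsewhere. Because the set was joined over the experiment, neighbouring or shifted peaks from separate libraries may have been fused into 1 wide interval.

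Number and width traded off between windows. The choice by cover sets this in advance, since at a like cover more intervals have to be narrower on average. The window with the most intervals, 62, lay over the chromatin protein gene Hmga2, and their median width was 230 bp. Windows with 1 gene held a median of 37 intervals with a median width of 401 bp, and windows with 10 or more genes held 29 with a median width of 454.5 bp. Within a window the cover was spread out. The fullest 10 kb held a median of 16.5% of a window's covered bases, the longest stretch without an interval had a median of 8216 bp, and in 331 of the 357 windows every 10 kb held some cover.

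**Figure D2:**
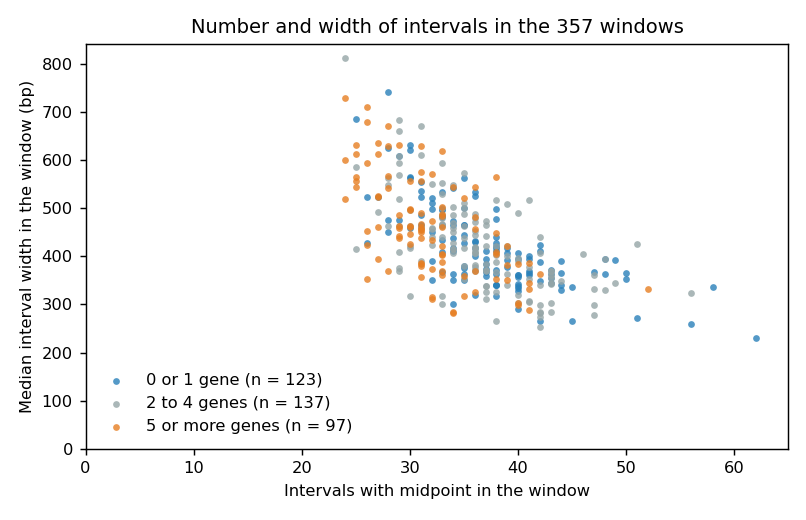
Each point is 1 of the 357 windows, with the number of intervals on the horizontal axis and their median width in bp on the vertical axis, coloured by the number of protein-coding genes overlapping the window. Windows with many intervals, up to 62, had narrower ones, which the choice of windows by cover sets in advance. Windows with 5 or more genes lie mostly toward few and wide intervals.

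Adjacent windows were joined into domains, which gave 297 runs. Of these, 250 were single windows, 38 had 2 windows, 6 had 3, 2 had 4 and 1 had 5. The 47 domains of at least 2 windows held 107 windows. The fixed grid sets where a domain begins and ends, and a run breaks wherever 1 window falls below the threshold.

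The longest domain, chr8:120100001-120600000, lay over Gse1, which encodes a coiled-coil protein found in corepressor complexes, and over its neighbours Gins2, a subunit of a DNA replication complex, Zdhhc7, a palmitoyltransferase, 6430548M08Rik and Cibar2. Its 5 windows had covers of 18.6%, 21.5%, 18.3%, 19.7% and 23.5%, with 172 intervals in all. Gse1 itself, 353.0 kb long, had 132 intervals over 20.5% of its length and overlapped 4 windows, the most of any gene. The last of the 5 windows was the fullest. All 3 listed Gse1 starts were inside intervals: that at 120488866, in the fourth window, in one of 2206 bp, and those at 120535857 and 120537409, in the fifth, in a shared one of 1962 bp. The windows on either side of the domain had 14.52% and 16.55%.

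The Septin9 domain, chr11:117100001-117400000, was the fullest of the domains of 3 or more windows, with 140 intervals and a cover of 23.6%. Septin9 encodes a filament-forming GTPase that binds actin and microtubules. Its 3 windows had 21.3%, 21.1% and 28.5%, and the last was the most covered of all 24612, with 58 intervals. Septin9 had 75 intervals over 24.9% of its length, and all 4 listed starts lay inside intervals of 1352, 1492 and, shared by the last pair, 1761 bp. The promoter printed above belongs to the start at 117331715, which lay in the fullest window. Sec14l1, a lipid-transfer protein gene, was the only other protein-coding gene in the domain.

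The paired collagen genes Col4a1 and Col4a2, which encode the main chains of type IV collagen in basement membranes, filled the domain chr8:11200001-11500000 together with Rab20 and Naxd. Its windows had 19.7%, 21.6% and 19.6%. Col4a1 and Col4a2 are read in opposite directions from starts at 11312826 and 11312805, and 1 interval of 2547 bp (chr8:11311640-11314186) held both starts. Col4a1 had 45 intervals over 21801 bp and Col4a2 had 54 over 28254 bp.

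The Nav1 domain, chr1:135500001-135800000, had covers of 20.0%, 19.6% and 20.3% over Nav1, which encodes a microtubule-associated neuron navigator, Csrp1, a LIM protein of the actin cytoskeleton and smooth muscle, Tnni1, the slow skeletal troponin I, and Phlda3, a p53 target. Tnni1 is a sarcomere gene, and it had 11 intervals over 19.8% of its length, while the Nav1 start lay inside an interval of 2827 bp. The Tnrc18 domain, chr5:142700001-143000000, had 19.1%, 19.4% and 20.0%, and held Actb, the gene for cytoplasmic beta-actin, and Fscn1, the gene for the actin-bundling protein fascin, together with Slc29a4, Fbxl18 and Rnf216. Actb was covered over 31.0% of its length and Fscn1 over 23.7%.

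The Rere domain, chr4:150600001-150900000, at 18.8%, 19.4% and 19.02%, held Rere, a nuclear receptor coregulator, Slc45a1, Errfi1, a feedback inhibitor of EGF receptor signalling, and Park7. Its middle window held no protein-coding gene. In the Ell domain, chr8:70400001-70700000, 16 genes lay in windows of 19.1%, 20.3% and 19.9%. Among them were Ell, an elongation factor of RNA polymerase II, Crtc1, a coactivator of CREB, Gdf15, a stress-responsive ligand, and Jund, an AP-1 factor.

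The 2 domains of 4 windows differed in gene number. The Ptges domain, chr2:30600001-31000000, at 19.2%, 20.3%, 21.4% and 18.2%, held 10 genes, among them Ptges, a prostaglandin E synthase, Prrx2, a homeobox factor of mesenchyme, and the torsin genes Tor1a and Tor1b. Its fullest window lay over Prrx2, which had 17 intervals over 25.3% of its length. The Sbno2 domain, chr10:79800001-80200000, at 21.1%, 20.8%, 18.7% and 23.1%, held 27 genes, among them Stk11, the kinase LKB1, Gpx4, a lipid peroxidase, Ptbp1, a splicing repressor, and Cirbp, a cold-inducible RNA-binding protein. Its fullest 10 kb was covered to 46.4%.

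**Figure D3:**
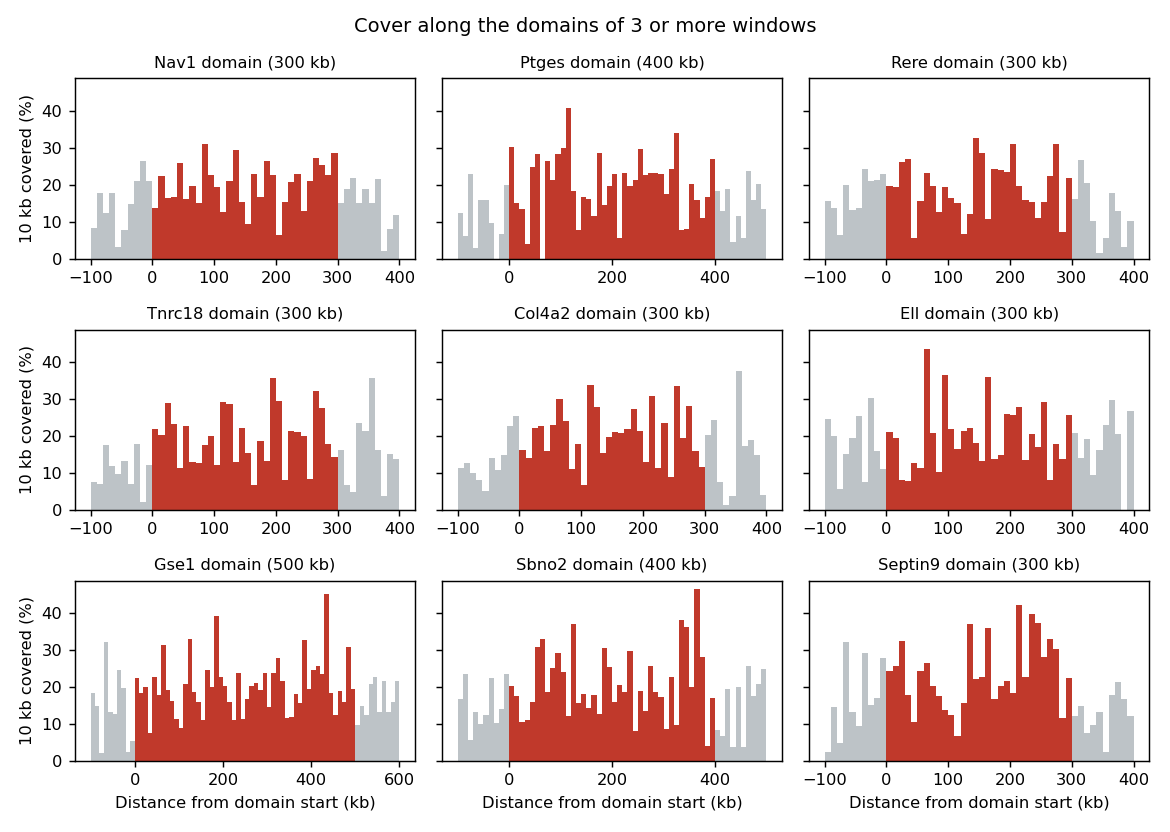
Cover in steps of 10 kb (percent) along the 9 domains of 3 or more windows, by distance from the domain's start in kb, with the domain in red and the flanking 100 kb in grey. Within the domains the 10-kb cover ranged from 0.0% in the Ptges domain to 46.4% in the Sbno2 domain, and only the Ptges domain had a 10-kb step without cover.

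Domains of 2 windows included several with 1 protein-coding gene. The Hmga2 domain, chr10:120300001-120500000, had 23.9% and 24.6% with 112 intervals, the highest cover of the domains of 2 windows, and held no protein-coding gene but Hmga2, an architectural chromatin protein of embryonic and proliferating mesenchymal cells. Hmga2 had 85 intervals over 29.0% of its 115.0 kb. Tead1, a TEAD factor, filled chr7:112700001-112900000 at 21.9% and 18.5%. Cd44, a hyaluronan receptor, was the only protein-coding gene of chr2:102800001-103000000, at 19.2% and 19.1%, but it held 800 of the 19088 covered bases of the second window, which lay mostly beyond its start. Zmiz1, a transcriptional coregulator, was likewise alone in chr14:25400001-25600000 at 18.5% and 19.3%.

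The Ltbp3 domain, chr19:5700001-5900000, had 23.4% and 23.7% and held 11 protein-coding genes, among them Ltbp3, which anchors latent TGF-beta in the matrix, and Map3k11, a kinase upstream of JNK. The long noncoding RNA genes Malat1 and Neat1, which encode abundant nuclear RNAs, also lay in it. Malat1 was covered over 13.5% of its length and Neat1 over 28.1%. The Lrp1 domain, chr10:127500001-127700000, had 24.0% and 21.2% and held Lrp1, a large endocytic receptor, Stat6, a cytokine-activated factor, and Shmt2, a mitochondrial enzyme of one-carbon metabolism. Its flanks had 9.61% and 10.23%.

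Several genes of the actin list lay in further domains of 2 windows, mostly beside other genes. Actn1 and Actn4 encode alpha-actinins, which crosslink actin. The Actn1 domain, chr12:80100001-80300000, had 20.3% and 19.2%, and it also held Zfp36l1, a regulator of mRNA decay. The Actn4 domain, chr7:28800001-29000000, had 18.7% and 20.2%. Myh9, the heavy chain of nonmuscle myosin IIA, lay in chr15:77700001-77900000 at 18.7% and 19.3%. The flanks of the Myh9 domain were low, at 3.6% and 6.27%.

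Domains of gene clusters were of another kind. The histone domain, chr13:23400001-23600000, had 21.1% and 22.0% between flanks of 9.13% and 7.86%. All of its 18 protein-coding genes except Btn1a1, Btn2a2 and Abt1 are replication-dependent histone genes, such as H2bc6, H4c4 and H1f3, and 35 tRNA genes also lay there. The Hoxc domain, chr15:102900001-103100000, had 21.1% and 21.6%, with a left flank of 3.34%, and the Hoxb domain, chr11:96200001-96400000, had 18.2% and 18.6%. Other gene-dense domains included that of Bag6 in the major histocompatibility complex, chr17:35000001-35200000, with 25 genes, several of them of the Ly6 family, at 19.9% and 18.3%, and that of Dctn1, a dynactin subunit, chr6:83000001-83200000, with 18 genes at 20.5% and 22.4%.

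Among the single windows, Capzb, which encodes an actin capping protein, had the fullest, 27.8% with 51 intervals, second of all windows after that of Septin9. The window of the HoxA cluster, chr6:52200001-52300000, had 25.7% with 52 intervals, and that of Hspg2, the heparan sulfate proteoglycan perlecan, had 25.2% with 56. Zcchc24, a zinc finger gene, followed at 24.5%, Rara, the retinoic acid receptor alpha, at 24.2%, and Irf2bpl, a gene related to the corepressors of IRF2, at 24.2%. These windows were flanked by covers between 9.0% and 16.95%.

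Further single windows lay over regulators of transcription and of cell shape. Nfix, a nuclear factor I protein, had a window of 23.9%. Lrig1, a brake on receptor tyrosine kinases, had 23.5%, and Trio, a guanine nucleotide exchange factor for small GTPases, had a window of 23.3% and another, not adjacent, of 19.5%. Tpm1, a tropomyosin, had 22.8%, Runx1, a Runt-domain factor, had 22.7% and Bcar1, the focal adhesion adaptor p130Cas, had 22.2%. In 59 windows (16.5%) at least 90% of the covered bases lay within 1 gene, and 38 windows lay wholly inside 1 gene.

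Single windows over signalling and structural genes showed how far interval number varied at a like cover. Csf1, the growth factor of macrophages, had a window of 21.7% made of 44 intervals, and Src, the membrane-bound tyrosine kinase, had one of 21.2% made of 32. Afap1, an adaptor between actin filaments and Src, had 51 intervals at 21.6%, with a median width of 271 bp, while the window of Ahnak, a giant scaffold protein below the membrane, had 41 at 22.0% with a median width of 516 bp. Emp1, a tetraspan membrane protein, had a window of 22.6%, Lmna, the gene of the nuclear lamins A and C, one of 19.7%, and Tgm2, the matrix-crosslinking transglutaminase, one of 19.4%.

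The widest of the 314915 intervals, 4160 bp at chr9:121757510-121761669, lay in a window of 18.2% and held the start of Zfp651, a zinc finger gene. Another of 3733 bp lay over Dmpk, the kinase gene of myotonic dystrophy, and the homeobox gene Six5. Next in the windows were intervals over Ptbp1 and Plppr3 (3291 bp), Sorcs2 (3276 bp), Rgma (3251 bp), and Nek8 and Tlcd1 (3249 bp). They were followed by one outside genes (3228 bp), Gpr153 (3171 bp), Ppp1r37 (3160 bp) and another outside genes (2990 bp). Narrower ones of 2965 bp and 2923 bp held the starts of Twist2, a mesenchymal helix-loop-helix factor, and Nes, the intermediate filament nestin.

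The surroundings of the windows were also covered above the general level. Of the 714 neighbours at 100 kb, 120 (16.8%) were themselves among the 357 windows, against 1.45% of all windows. The other 594 neighbours had a median cover of 13.31%. At 500 kb the neighbours below the threshold had a median of 9.94%, and at 1000 kb 9.03%, against 4.85% for all windows below the threshold. The rule did not use neighbouring windows, although an interval set's local density extends over window borders, so the nearest values are not independent of it. Of the 297 runs, 70 (23.6%) had another run at most 2 windows away and 146 (49.2%) at most 10, with a median distance to the nearest run of 11 windows.

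**Figure D4:**
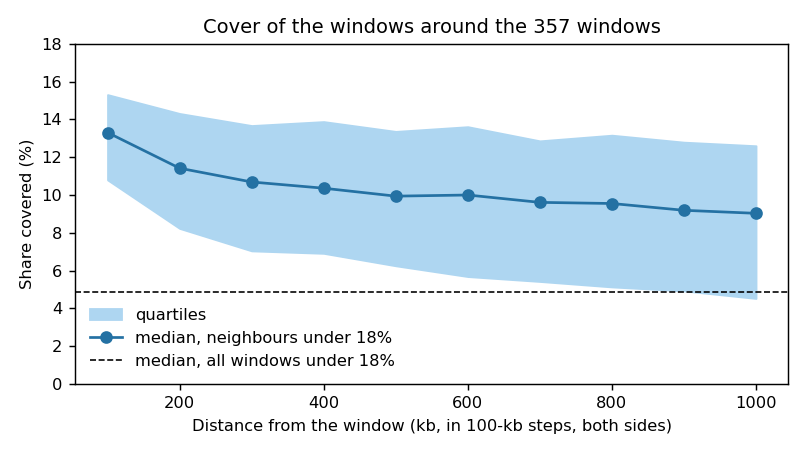
Median and quartiles of the cover (percent) of windows below 18% by their distance in kb from the 357 windows, both sides together. The median fell from 13.31% at 100 kb to 9.03% at 1000 kb and stayed above the 4.85% of all windows below 18% (dashed line).

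Chromosomes differed in their share of such windows. Chromosome 11 had 39 of its 1220 windows (3.2%), chromosome 15 had 25 (2.41%), chromosome 8 had 29 (2.24%) and chromosome 7 had 28 (1.93%). Chromosome 16 had 3 (0.306%), over Runx1, the focal adhesion gene Lpp and the tyrosine kinase gene Tnk2. Chromosome 3 had 9 (0.562%) and chromosome 13 had 7 (0.581%). Chromosome 11 also had the highest median cover over all its windows, 7.24%, with 13.2 genes per Mb, while chromosome 13 had a median of 5.61%, above that of chromosome 8 at 4.74%. The order of chromosomes by these windows was therefore not the order by median cover.

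The windows lay over genes more than the rest of the set did. Gene bodies held 61.9% of the members' midpoints against 48.1% of other intervals, and positions within 1 kb of a gene end held 11.3% (95% Wilson interval 10.7% to 11.8%, counting error only) against 6.71%. Positions outside genes held 26.8% against 45.2%. In gene bodies the members' median width was 386 bp, compared with 321 bp for other intervals, and outside genes it was 409 bp compared with 322 bp. At gene ends the members were narrower, at 730.5 bp compared with 807 bp. By these medians the greater width of the members was found away from gene ends, which here include both ends of a gene. Intervals holding an annotated start had a median width of 1276 bp in the windows and 1260 bp elsewhere.

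Windows with more genes passed the threshold more often. Of the 8949 windows without a protein-coding gene 10 passed (0.112%), of the 8575 with 1 gene 113 passed (1.32%), and of the 6061 with 2 to 4 genes 137 passed (2.26%). Of the 969 windows with 5 to 9 genes 82 passed (8.46%), and of the 58 with 10 or more 15 passed (25.9%). The makeup of the windows changed along this order. In windows with 1 gene 2.12% of the members lay at a gene end and 74.0% in the gene body, while in windows with 10 or more genes 40.1% lay at a gene end.

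Of the 20665 protein-coding genes on chromosomes 1 to 19, 1162 overlapped the windows (5.62%). That share is the background for the lists below. By gene length, 6.63% of genes up to 10 kb overlapped a window, 5.74% of those of 10 to 30 kb, 4.19% of those of 30 to 100 kb, 5.65% of those of 100 to 300 kb and 3.39% of those over 300 kb. Overlap does not mean that the gene itself is densely covered. Of the 1162 genes, 667 (57.4%) had at least 18% of their own length covered, and the median was 19.3%.

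Genes of the actin cytoskeleton and focal adhesions were in the windows above that background, with 22 of 42 (52.4%). Septin9, Capzb, Afap1, Actn1 and Myh9 were already known from earlier results of these data to be dense, and without them the count was 17 of 37 (45.9%). The genes lay in 28 windows, and 17 of the 22 (77.3%) had at least 18% of their own length covered. Actin itself and its direct partners were represented by Actb, Cfl1, the filament-severing cofilin, and Pfn1, the monomer-binding profilin, whose 4.96 kb were covered to 68.5%. Filament-binding proteins were represented by the tropomyosins Tpm1 and Tpm2, Cald1 (caldesmon), Lasp1, and the alpha-actinins Actn1 and Actn4.

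Focal adhesion genes in the windows were Tln1 (talin), Pxn (paxillin), Tns1 (tensin), Bcar1, Pdlim7 and Lpp, a LIM protein with 204 intervals over 599.0 kb. Tns1 had 77 intervals over 19.3% of its length, with a fullest window of 22.3%, and Pxn was covered to 24.1%. Rock2, a kinase that promotes actomyosin contraction, and Diaph1, a formin, overlapped windows although their own cover was only 10.5% and 10.7%. The list members nearest below the threshold were Zyx (zyxin) with a best window of 17.8%, Palld (palladin) with 17.5%, Myl9 (a myosin light chain) with 17.5% and Parvb (parvin) with 17.4%.

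Hox genes, which give cells positional identity along the body axis, had 26 of 39 in the windows (66.7%), but these share 5 windows and are not independent counts. Without the Hoxa genes, known from earlier results, 18 of 28 remained. All 9 Hoxc genes and 9 of the 10 Hoxb genes were included. No Hoxd gene was, and their cluster reached 16.8%. Cover over the Hox genes themselves varied widely. Hoxb2 was covered to 82.7%, Hoxc11 to 78.6% and Hoxa13 to 71.0%, whereas Hoxa6 was covered to 7.5%.

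**Figure D5:**
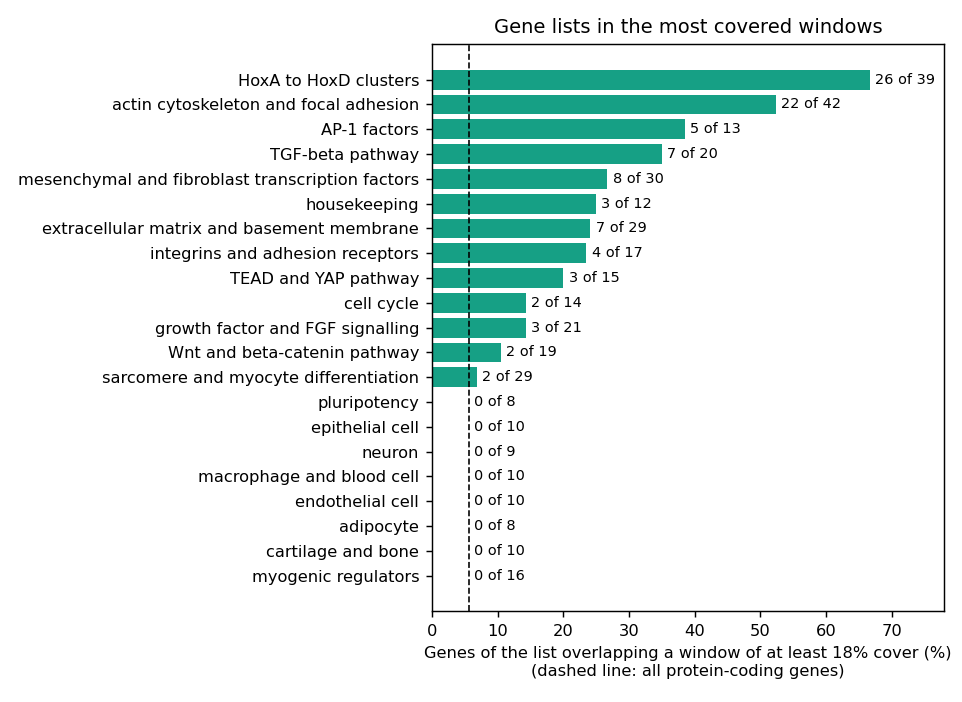
Share of each gene list on chromosomes 1 to 19 that overlapped a window of at least 18% cover (percent), with the counts beside the bars and all protein-coding genes (5.62%) as a dashed line. The Hox clusters with 26 of 39 and the actin list with 22 of 42 stand highest, and 8 lists, among them the myogenic regulators with 0 of 16, had no gene in the windows. At this background a small empty list says little by itself.

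Of the mesenchymal and fibroblast transcription factors, 8 of 30 were in the windows (26.7%), namely Hmga2, Nfix, Runx1, Prrx2, Prrx1, Twist2, Snai1 and Tcf4. Without the 1 gene known from earlier results the count was 7 of 29 (24.1%). Prrx1 and Prrx2 are homeobox factors of limb and craniofacial mesenchyme, and Twist2 and Snai1 are regulators of the mesenchymal state. Prrx1 had 28 intervals over 21.4% of its length, with its start inside an interval of 2235 bp, and Twist2 had 23 over 25.9%. Runx1 had 65 intervals over 15.2% of its length, and the window lay over the part of the gene with its downstream start. That start had an interval of 1793 bp, and the upstream start, outside the windows, had one of 333 bp. Foxc2, a forkhead factor, came closest from below at 17.4%.

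Of the AP-1 factors, 5 of 13 were in the windows (38.5%): Fosl1, Fosl2, Fosb, Junb and Jund. With the grid shifted by 50 kb the count was 3. They are small genes, so that their windows mostly hold other genes' intervals too. Jund was covered to 68.7%, Junb to 42.4%, Fosb to 33.7%, Fosl2 to 21.4% and Fosl1 to 17.5%, the last in the window of 23.6% that it shared with Cfl1 and Efemp2. Jun and Fos had best windows of 15.4% and 15.3%. Of the TEAD and YAP pathway, 3 of 15 were included (20.0%), namely Tead1, Tead3 and Vgll4, a TEAD cofactor. The YAP targets Amotl2 and Ccn1 lay just below, both at 17.8%.

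The lists of pathways touched by RepSox and CHIR99021 can be set against the same background. No list was made for forskolin. RepSox blocks the type I TGF-beta receptor, and 7 of 20 genes of that pathway were in the windows (35.0%). They were the ligand Tgfb3, the latency proteins Ltbp2 and Ltbp3, the signal transducers Smad3 and Smad7 (an inhibitor), the repressor Ski and the induced gene Tgfbi. Smad3 had 39 intervals over 18.4% of its length and Ski had 23 over 23.6%, while the receptor genes Tgfbr3 and Tgfbr2 reached 17.9% and 16.5%. CHIR99021 blocks GSK3, and of the Wnt and beta-catenin list 2 of 19 (10.5%) were included, Fzd7, a Wnt receptor, and Gsk3a, and 1 with the shifted grid. Tcf7l1, a nuclear effector, missed the threshold by the least, at 17.98%. Which group the intervals came from was not analysed here.

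Matrix genes had 7 of 29 in the windows (24.1%) and adhesion receptors 4 of 17 (23.5%). Without the genes of earlier results these counts were 5 of 26 (19.2%) and 3 of 16 (18.8%). The matrix genes were the collagens Col4a1, Col4a2, Col5a1 and Col1a1, the perlecan gene Hspg2, the fibulin gene Fbln2 and the tenascin gene Tnc. Each had at least 18% of its own length covered, with a median of 21.3%. Fn1, the gene for fibronectin, reached a best window of 17.2%. The receptors were Itga5, which binds fibronectin, Itga7, which binds laminin in muscle, the syndecan Sdc4 and Cd44.

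Growth factor signalling had 3 of 21 genes in the windows (14.3%), the receptors Fgfr1 and Igf1r and the ERK phosphatase Dusp6. Igf1r had 100 intervals over 281.0 kb. The cell cycle list had 2 of 14 (14.3%), the CDK inhibitor Cdkn1a and Cdk4, and 0 with the grid shifted by 50 kb. The housekeeping list had 3 of 12 (25.0%), among them Actb and Rplp0, so that a share of that size is not particular to fibroblast lists. Small lists such as these rest on few genes.

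No myogenic regulator lay in the windows (0 of 16), a list that includes Myf6, the gene induced in 2 of the groups. In contrast, 1 did when the grid of windows was shifted by 50 kb. At a background of 5.62% an empty list of 16 genes says little by itself. The best windows of that list were those of Tcf3 at 16.2%, Tcf12 at 15.0%, Mef2d at 14.8% and Myog at 14.5%, and its median best window was 10.8% against 10.1% for all protein-coding genes. Of the sarcomere and myocyte genes 2 of 29 were included (6.9%), close to the background. They were Chrna1, a subunit of the muscle acetylcholine receptor, with 6 intervals over 19.3% of its length, and Tnni1. Des (desmin) lay just below, at 17.7%.

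Markers of other cell types were not in the windows: none of 10 cartilage and bone, 8 adipocyte, 10 endothelial, 10 macrophage and blood, 9 neuron, 10 epithelial and 8 pluripotency genes. With the grid shifted by 50 kb 1 epithelial gene was. At a minimum of 15%, where the background was 17.0%, the lists had 3, 1, 1, 2, 1, 3 and 0 genes, in the same order. At a background of 5.62% a list of 10 genes corresponds to less than 1 gene, so an empty list says little by itself. Their median best windows were 12.3%, 13.2%, 10.8%, 12.0%, 6.91%, 9.82% and 8.98%. The highest single values were Rbfox3 (a neuronal splicing factor in a gene of 422.0 kb) at 17.6%, Comp (a cartilage matrix protein) at 17.5% and Spi1 (a blood cell factor) at 16.7%. The lists chosen to check the fibroblast label, of mesenchymal transcription factors and of matrix genes, had 8 and 7 genes in the windows. Without the genes of earlier results these counts were 7 of 29 and 5 of 26. At a minimum of 15% the full lists had 12 of 30 and 12 of 29, and the housekeeping list had 7 of 12. The mesenchymal and matrix lists had median best windows of 13.4% and 14.2%, against 10.1% for all protein-coding genes. Housekeeping genes had 15.1%, so medians of that size are not particular to fibroblast lists.

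Of the windows, 10 held no protein-coding gene, and all but that beyond Irf2bp2 held a noncoding gene. Lncpint, a p53-regulated long noncoding RNA, spanned 2 adjacent ones, at 18.5% and 20.4%, the former of which also held the genes of miR-29a and miR-29b. Morrbid, which controls the survival of short-lived myeloid cells, had a window of 18.4%, and Pvt1, the noncoding neighbour of Myc, had one of 18.99% with 40 intervals. Others lay 6.01 kb beyond Irf2bp2 (18.4%), between Slc45a1 and Errfi1 (19.4%), 51.7 kb from Rad51b and 108.0 kb from Zfp36l1 (18.99%), and 81.1 kb from Msrb3 and 124.0 kb from Hmga2 (19.4%). Irf2bp2, Errfi1, Zfp36l1 and Hmga2 also lay in windows of their own.

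MicroRNA genes were in the windows somewhat above the share of protein-coding genes, 67 of 919 hairpins (7.29%), in 57 windows. Of the 67, 22 touched an interval (32.8%), against 213 of all 919 (23.2%). That share is not independent of the rule, which chose windows by the cover of the same intervals. Mature sequences are shown for those that share a seed (bases 2 to 8, in capitals), which sets the targets they recognise, within or between the windows, from the RefSeq miRNA table of GRCm38.p6.
miR-196a-5p: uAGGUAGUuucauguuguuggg
miR-196b-5p: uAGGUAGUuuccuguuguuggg
miR-29a-3p: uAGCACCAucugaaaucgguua
miR-29b-3p: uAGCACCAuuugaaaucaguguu
miR-132-3p: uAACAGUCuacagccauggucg
miR-212-3p: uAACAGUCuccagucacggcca

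The seed AGGUAGU linked all 3 Hox clusters in the windows, with miR-196a-5p from the Hoxb and Hoxc domains and miR-196b-5p from the HoxA window. None of these 3 hairpins touched an interval, and the nearest intervals were 3322, 884 and 335 bp away. The miR-29 pair, known for repressing collagen mRNAs, lay in the Lncpint window 65 and 142 bp from the nearest interval. The miR-132 and miR-212 hairpins lay wholly inside intervals, in a window of 21.7% that also held Hic1, a tumour suppressor gene. In the Hoxc domain miR-615 lay inside an interval, as did miR-193a in the window beyond Rab11fip4.

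Transfer RNA genes were also frequent, with 61 of 391 (15.6%) in 8 windows, and 58 of these touched an interval, against 255 of all 391. The windows were chosen by the cover of the same intervals. The histone domain held 35 of them. Long noncoding RNA genes were below the share of protein-coding genes, with 432 of 12408 (3.48%), and pseudogenes had 71 of 8884 (0.799%).

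Annotated starts in the windows were more often accessible than others. Of the 978 starts, 83.1% lay in an interval, against 64.5% of the 19107 starts outside, a measure that shares its intervals with the cover used to choose the windows. Their promoters were richer in CpG, a property the rule did not use, with a median ratio of observed to expected CpG of 0.689 against 0.576 and a median GC content of 61.3% against 56.3%. Among starts inside an interval the ratio was 0.732 in the windows and 0.755 outside, so the difference was found over all starts and not among accessible ones.

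Single genes in the windows mixed promoters of both kinds. The 4 Septin9 starts had ratios of 0.812, 0.524, 0.182 and 0.58, and the lowest belonged to the promoter with the AP-1 matches printed above. Cdkn1a had a start with a ratio of 0.0892 in an interval of 249 bp and another with 0.786 in an interval of 634 bp. The 2 Runx1 starts had 1.01 for the one in the windows and 0.137 for the one outside. Of the 4 Nfix starts in the windows only that with a ratio of 0.164 was inside an interval, of 1473 bp.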

How the data were processed

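The measurement was ATAC-seq. The submitters' processing notes name GRCm38.p6 and the tools MACS2, BWA and DESeq2, with neither version nor role. Consensus peaks were annotated by the authors with annotatePeaks of HOMER, using GRCm38.p6 and GENCODE vM23, per the file headers. For the calling, joining and pooling of peaks the settings are not given in the sources used. The deposited peak score is 0 throughout and was not used. Start and End were read as deposited, as 1-based inclusive positions, without other change. The file holds no value per library, so depth is unknown and no test or p-value was computed.

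Cover was the number of bases of each 100-kb window inside an interval, and genes counted when they overlapped a window by 1 base or more. Gene positions came from the RefSeq table of GRCm38.p6. The RefSeq promoter table had 16457 of the 20665 genes (912 of the 1162 in windows), and promoters of chromosome 18 are not used here. The window code was tested on simulated data. The software was Python 3.11.15 with pandas 2.3.3, numpy 2.4.6, matplotlib 3.10.9 and scipy 1.17.1. The windows and the 21 gene lists were chosen with earlier results of these data known. Named genes followed a rule: all genes of domains of 2 or more windows, up to 3 with the most covered bases in each single window, list genes in windows, up to 4 list genes nearest below, the windows beside the threshold and the most covered noncoding genes. The text names a part of these, and some are not reported here. Other noncoding genes, the widest intervals and single starts were picked after their values were seen. Alternatives changed the minimum, the window size and grid, the interval widths and the way genes and intervals were assigned.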

Additional observations from a re-analysis of the deposited data

How the results depend on the processing

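The counts depend on the settings that define a window. The 357 windows, 12667 intervals, 297 domains and 1162 genes became 1317, 42486, 891 and 3506 at a minimum of 15%, and 112, 4192, 98 and 419 at 20%. They became 1287, 23073, 1014 and 2312 with 50-kb windows, 74, 5115, 63 and 497 with 200-kb windows, and 102, 2428, 92 and 438 with intervals of at least 300 bp. The share of intervals at gene ends, 11.3%, was 16.5% with those wider intervals and 17.9% with a distance of 2 kb. Shifting the grid by 50 kb gave 346 windows and 1171 genes (5.67%), of which 589 were among the 1162 (50.7%), so single genes depend on the grid. With the shift the actin list had 18, the Hox list 32, the AP-1 list 3, the TGF-beta list 5, the myogenic, epithelial and Wnt lists 1 each and the cell cycle list 0 genes. At 15%, where the background was 17.0%, the actin list had 31 and the myogenic list 2. Leaving out chromosome 11, or the genes of earlier results, was chosen after seeing the data. The former left 318 windows and 1009 genes. No paired analysis was possible because the intervals carry no value per library. The read depth is unknown and limits what the absence of an interval shows.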

Other observations

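Gene families were picked out by the root of the symbol after their values were seen, with no test. Of 1136 families of 3 to 10 genes, 33 had at least 50% of their members in the windows, some of them clusters within 1 window. Families spread over separate windows included Irf2bp, the corepressors of IRF2, with Irf2bp1, Irf2bp2 and Irf2bpl in 3 windows. Of the Notch receptors, Notch1, Notch2 and Notch3 lay in windows of 18.7%, 18.9% and 19.1%, while the best window of Notch4 had 9.29%. Of the latent TGF-beta binding proteins, Ltbp2, Ltbp3 and Ltbp4 were in the windows. The best window of Ltbp1 had 15.01%.

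The X chromosome, which the windows described here leave out, had 1 of 1700 windows at or above 18%, from 74200001 to 74300000, with a cover of 22.98%.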
